A study of Homo sapiens with 12 samples.

Results

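The genes described here are 36 genes of cholesterol and fatty acid synthesis, chosen by symbol from a count table of 25382 gene symbols. They fall into 18 sterol enzymes, 6 sterol regulators and 12 fatty acid genes. All 36 were found and all 36 passed the low-count filter, which kept 15437 genes. They were measured by RNA sequencing in Cal27, an epithelial line of human tongue squamous carcinoma, labelled wild type. The cells grew on polyacrylamide coated with collagen, soft (0.48 kPa) or stiff (20 kPa), in high-glucose medium with fetal bovine serum. Cells were conditioned for 5 days and then replated for 1 day. In the stiff-to-soft condition cells moved from stiff to soft gels. In the LPA-to-FAKi condition cells on soft gels received lysophosphatidic acid (LPA), a lipid that signals through G protein-coupled receptors, and were then replated on soft gels in the presence of a FAK inhibitor, which blocks focal adhesion kinase, a kinase of integrin adhesions. In the LPA-to-soft condition LPA conditioning was followed by soft gels without the inhibitor, and in the soft-to-soft condition cells stayed on soft gels untreated. Each condition had 3 libraries, numbered 1 to 3. The series asks which genes differ between cells that had learned, comprising LPA-to-soft and stiff-to-soft, and cells that had not, comprising LPA-to-FAKi and soft-to-soft. A single cell line serves as the model, and the sources used here give neither the dose of LPA nor the name of the inhibitor.

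Cells make cholesterol from acetyl-CoA through mevalonate, squalene and lanosterol, and fatty acids from acetyl-CoA through malonyl-CoA. Both routes are switched on by the sterol regulatory element-binding proteins (SREBPs), encoded by SREBF1 and SREBF2. When membranes of the endoplasmic reticulum hold little cholesterol, the escort protein SCAP carries SREBPs to the Golgi for cleavage, and when cholesterol is plentiful the INSIG proteins hold the complex back. INSIG1 is itself an SREBP target, so its transcript is commonly read together with those of the enzymes. Serum supplies cells with lipoprotein cholesterol and fatty acids.

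Levels are in CPM, read counts scaled to library size with TMM factors. Total counts ran from 62953957 to 122311183 per library. Between them, the 36 genes took from 0.309% of scaled counts in LPA-to-FAKi replicate 2 to 0.569% in LPA-to-FAKi replicate 3. The lowest count of any of them in any library was 122, for ACACB, so counting error was small beside the spread between libraries. The epithelial markers KRT5, KRT17, TP63, EPCAM and CDH1 were high in every library, while CD3E and ALB, markers of T cells and hepatocytes, were at 0. Of the fibroblast and endothelial markers, COL1A1 reached 30.9 and CDH5 36.3 CPM, while DCN and PECAM1 stayed at or near 0. Nothing in the labels tells whether libraries of a condition are separate cultures. The p-values therefore cover the spread between these samples alone, which may be technical. Soft-to-soft replicates 1 and 2 stand apart in their low counts. Among counts of 1 to 19, even values made up 42.9% and 42.2% there, and 96.8% to 97.8% in each of the remaining 10 libraries. The fits with replicate number, as a block or as the term tested, were also made without these libraries, with the remaining soft-to-soft library assumed to vary like those of the other conditions. Differences within replicate numbers 1 and 2 against soft-to-soft rest on them. In bulk RNA, fewer cells of a kind and less RNA per cell cannot be told apart.

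Set per kilobase of annotated exon, the mean level over the 12 libraries was highest for FDPS, the synthase of farnesyl diphosphate, at 117 CPM per kilobase. SCD, the desaturase that makes monounsaturated fatty acids, followed at 108 and FASN, the fatty acid synthase, at 88.4 CPM per kilobase. SREBF1 stood at 68.0 and SREBF2 at 45.4 CPM per kilobase. At the low end were FADS2, a desaturase of polyunsaturated fatty acids, at 2.43, and ACACB, the acetyl-CoA carboxylase of the mitochondrial surface, at 0.341, while ACACA, the cytosolic carboxylase, stood at 11.6 CPM per kilobase. Every member was thus detected, with ACACB the lowest. FDPS has 8 named pseudogenes, CYP51A1 3 and HSD17B7 2, so reads of these genes may be split or shared and their levels are uncertain. The exons of ACAT2 overlap those of genes on the other strand over 2961 bases, and the sources used here do not give the strand setting of the counting.

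Upstream sequence is shown for 8 members, because most members moved together across libraries, and SREBPs and their partner NF-Y act through short motifs near start sites. RefSeq windows (build GRCh38.p14, 250 bases upstream of the start site, read 5′ to 3′ in the direction of the gene) were held for 32 of the 36 members, all but ACAT2, FDFT1, SQLE and FASN. The motifs searched on both strands were TCACNCCA, the core of a sterol regulatory element, CCAAT, the box bound by NF-Y, CACGTG, an E-box, and GGGCGG, a GC box. Capitals mark the first 3 of these, in either orientation. The first 6 windows belong to members that varied strongly across libraries, and PMVK and SCAP are members that varied little. These windows do not stand for all members. NSDHL, not printed, also varied little, from 34.8 to 41.2 CPM, and has 5 CCAAT boxes. SREBF1, not printed, varied from 176 to 448 CPM and has none. Another window of HMGCS1, not printed either, has no CCAAT box.
INSIG1 (chr7:155297628-155297877, plus strand): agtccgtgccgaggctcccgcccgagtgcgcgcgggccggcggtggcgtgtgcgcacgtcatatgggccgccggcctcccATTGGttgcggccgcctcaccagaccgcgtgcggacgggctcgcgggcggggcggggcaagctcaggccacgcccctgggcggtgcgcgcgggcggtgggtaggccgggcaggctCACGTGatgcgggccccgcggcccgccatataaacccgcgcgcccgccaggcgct
HMGCS1 (chr5:43313413-43313662, minus strand): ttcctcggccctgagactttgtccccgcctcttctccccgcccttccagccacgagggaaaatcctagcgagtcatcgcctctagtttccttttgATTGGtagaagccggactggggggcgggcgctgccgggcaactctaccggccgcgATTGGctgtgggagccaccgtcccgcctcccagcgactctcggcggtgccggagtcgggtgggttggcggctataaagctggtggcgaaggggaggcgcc
MSMO1 (chr4:165327419-165327668, plus strand): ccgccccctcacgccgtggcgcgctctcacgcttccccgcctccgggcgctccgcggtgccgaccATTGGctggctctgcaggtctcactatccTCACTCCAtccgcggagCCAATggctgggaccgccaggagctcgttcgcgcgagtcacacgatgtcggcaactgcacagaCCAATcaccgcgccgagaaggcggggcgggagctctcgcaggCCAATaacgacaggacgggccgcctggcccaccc
SREBF2 (chr22:41832855-41833104, plus strand): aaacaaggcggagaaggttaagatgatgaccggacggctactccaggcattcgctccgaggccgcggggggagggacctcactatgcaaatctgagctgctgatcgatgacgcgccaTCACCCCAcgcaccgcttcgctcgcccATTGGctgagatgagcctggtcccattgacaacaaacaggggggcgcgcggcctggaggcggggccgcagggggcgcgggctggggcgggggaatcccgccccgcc
STARD4 (chr5:111512536-111512785, minus strand): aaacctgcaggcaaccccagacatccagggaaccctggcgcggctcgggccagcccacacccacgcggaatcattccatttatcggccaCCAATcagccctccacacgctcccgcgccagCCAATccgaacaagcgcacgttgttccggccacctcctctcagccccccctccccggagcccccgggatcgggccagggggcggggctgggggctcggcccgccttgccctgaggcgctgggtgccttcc
SCD (chr10:100346983-100347232, plus strand): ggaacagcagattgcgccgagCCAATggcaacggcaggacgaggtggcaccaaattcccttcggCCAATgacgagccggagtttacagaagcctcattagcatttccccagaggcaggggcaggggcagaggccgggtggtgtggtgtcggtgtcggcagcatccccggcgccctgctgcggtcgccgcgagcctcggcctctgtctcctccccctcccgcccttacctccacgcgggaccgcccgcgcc
PMVK (chr1:154936720-154936969, minus strand): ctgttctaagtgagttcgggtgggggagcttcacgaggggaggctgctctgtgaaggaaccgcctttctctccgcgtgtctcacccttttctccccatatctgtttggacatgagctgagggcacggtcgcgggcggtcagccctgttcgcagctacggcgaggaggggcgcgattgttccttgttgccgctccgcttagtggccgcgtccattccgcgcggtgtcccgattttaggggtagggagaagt
SCAP (chr3:47475942-47476191, minus strand): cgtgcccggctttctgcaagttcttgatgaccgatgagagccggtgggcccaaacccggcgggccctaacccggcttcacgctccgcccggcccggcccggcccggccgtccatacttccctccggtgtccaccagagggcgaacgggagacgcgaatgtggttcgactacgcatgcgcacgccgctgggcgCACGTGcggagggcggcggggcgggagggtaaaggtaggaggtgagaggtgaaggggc

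The CCAAT box was present in 24 of the 32 members with a window, against 37.0% of the 27305 symbols in the table. In MSMO1, the methyl sterol oxidase, it occurred 4 times. GC boxes were found in 30 of 32 members, against 46.24% of symbols. The sterol element core TCACNCCA was found in MVK, MSMO1 and SREBF2, 3 of 32 members, against 3.92% of symbols. Its copy in SREBF2 lies from -133 to -126 relative to the start site and is followed by a CCAAT box, read on the other strand, from -106 to -102. The E-box was found in SC5D, INSIG1, SCAP and ELOVL5, against 7.73% of symbols, and in INSIG1 it lies from -55 to -50. These are matches of letters and not sites of binding, and some members have more than 1 window. The shares of symbols cover every symbol with a window, not only genes that passed the low-count filter, and were not matched for base content. They therefore do not tell the members apart from other expressed genes.

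With all libraries, edgeR separated none of the 36 transcripts between conditions, whereas most of them had their highest mean in the libraries numbered 3. INSIG1, SCD and STARD4 varied most across the libraries, and SCAP and PMVK were among the flattest. Under the edgeR quasi-likelihood test with Benjamini-Hochberg adjustment over 15437 genes, at an adjusted p under 0.05, the count was 0 of 36 in each of 6 pairs of conditions, in learned against not learned, and in a test of any difference among the 4 conditions. The background was 0% of all genes tested in every one of these comparisons. At an unadjusted p under 0.05 the only member was ACACA, in LPA-to-soft against soft-to-soft (1.37% of all genes) and in learned against not learned (2.89% of all genes). No other comparison had a member below that p, while the share of all genes was 1.94% in stiff-to-soft relative to soft-to-soft, 5.43% in LPA-to-FAKi against LPA-to-soft and 3.55% in LPA-to-FAKi against soft-to-soft. It was 1.39% in stiff-to-soft against LPA-to-soft, 2.93% in stiff-to-soft against LPA-to-FAKi and 2.25% for any difference. DESeq2 without replicate number called 0 members in each comparison, with at most 0.0583% of all genes, for any difference. Its shares were 0.0324% in LPA-to-FAKi against LPA-to-soft, 0.0259% in stiff-to-soft against either soft-to-soft or LPA-to-FAKi, 0.0194% in LPA-to-FAKi against soft-to-soft, 0.013% in LPA-to-soft against soft-to-soft, and 0% otherwise.

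Same-numbered libraries deviated together, so replicate number was also used as a block. EdgeR with the block again called 0 of 36 members in each comparison, while it called 0.583% of all genes between stiff-to-soft and soft-to-soft, 0.564% between LPA-to-FAKi and soft-to-soft and 0.214% for any difference. The share was 0.0324% in stiff-to-soft against LPA-to-FAKi, 0.00648% both in stiff-to-soft against LPA-to-soft and in learned against not learned, and 0% in the remaining pairs. The count of 0 genes in LPA-to-FAKi against LPA-to-soft rests on 1 library, since 639 genes were called without soft-to-soft replicate 2, none of them a member. Other shares over all genes with the block also rest on single libraries. With each library left out in turn, 7 to 228 genes were called in stiff-to-soft relative to soft-to-soft (90 with all libraries), fewest without stiff-to-soft replicate 3 and most without LPA-to-FAKi replicate 1. In LPA-to-FAKi against soft-to-soft the count ran from 0, without soft-to-soft replicate 3, to 307, without soft-to-soft replicate 2 (87 with all libraries). For any difference it ran from 1, without stiff-to-soft replicate 3, to 271 (33 with all), and in stiff-to-soft against LPA-to-FAKi from 1, without stiff-to-soft replicate 2, to 195 (5 with all), both most without soft-to-soft replicate 2. At an unadjusted p under 0.05 with the block, 8 members passed in LPA-to-FAKi against LPA-to-soft (22.3% of all genes), among them ACACA, STARD4, SCD and LSS. In stiff-to-soft relative to soft-to-soft 4 passed (10.2%), and in LPA-to-FAKi against soft-to-soft 4 passed (16.6%), with ELOVL6, FADS2 and ACACB among both. LPA-to-soft against soft-to-soft had 1 member (7.97%), stiff-to-soft against LPA-to-FAKi 1 (12.5%), stiff-to-soft against LPA-to-soft 0 (9.42%), learned against not learned 2 (9.94%) and any difference 3 (18.2%). Each of these shares is about equal to or below that of all genes. DESeq2 with the block called 1 member in each of 3 comparisons, described with ACACA and FADS2, and 0 in the rest, where it called 2.87% of all genes in stiff-to-soft relative to soft-to-soft and 7.97% in LPA-to-FAKi against LPA-to-soft. Its shares were 0.428% in stiff-to-soft against LPA-to-soft, 2.24% in stiff-to-soft against LPA-to-FAKi and 0.836% in learned against not learned. The median SE of a member's log2 fold change in stiff-to-soft relative to soft-to-soft was 0.27 without the block and 0.12 with it, so small differences were not detectable at this spread.

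**Figure D1:**
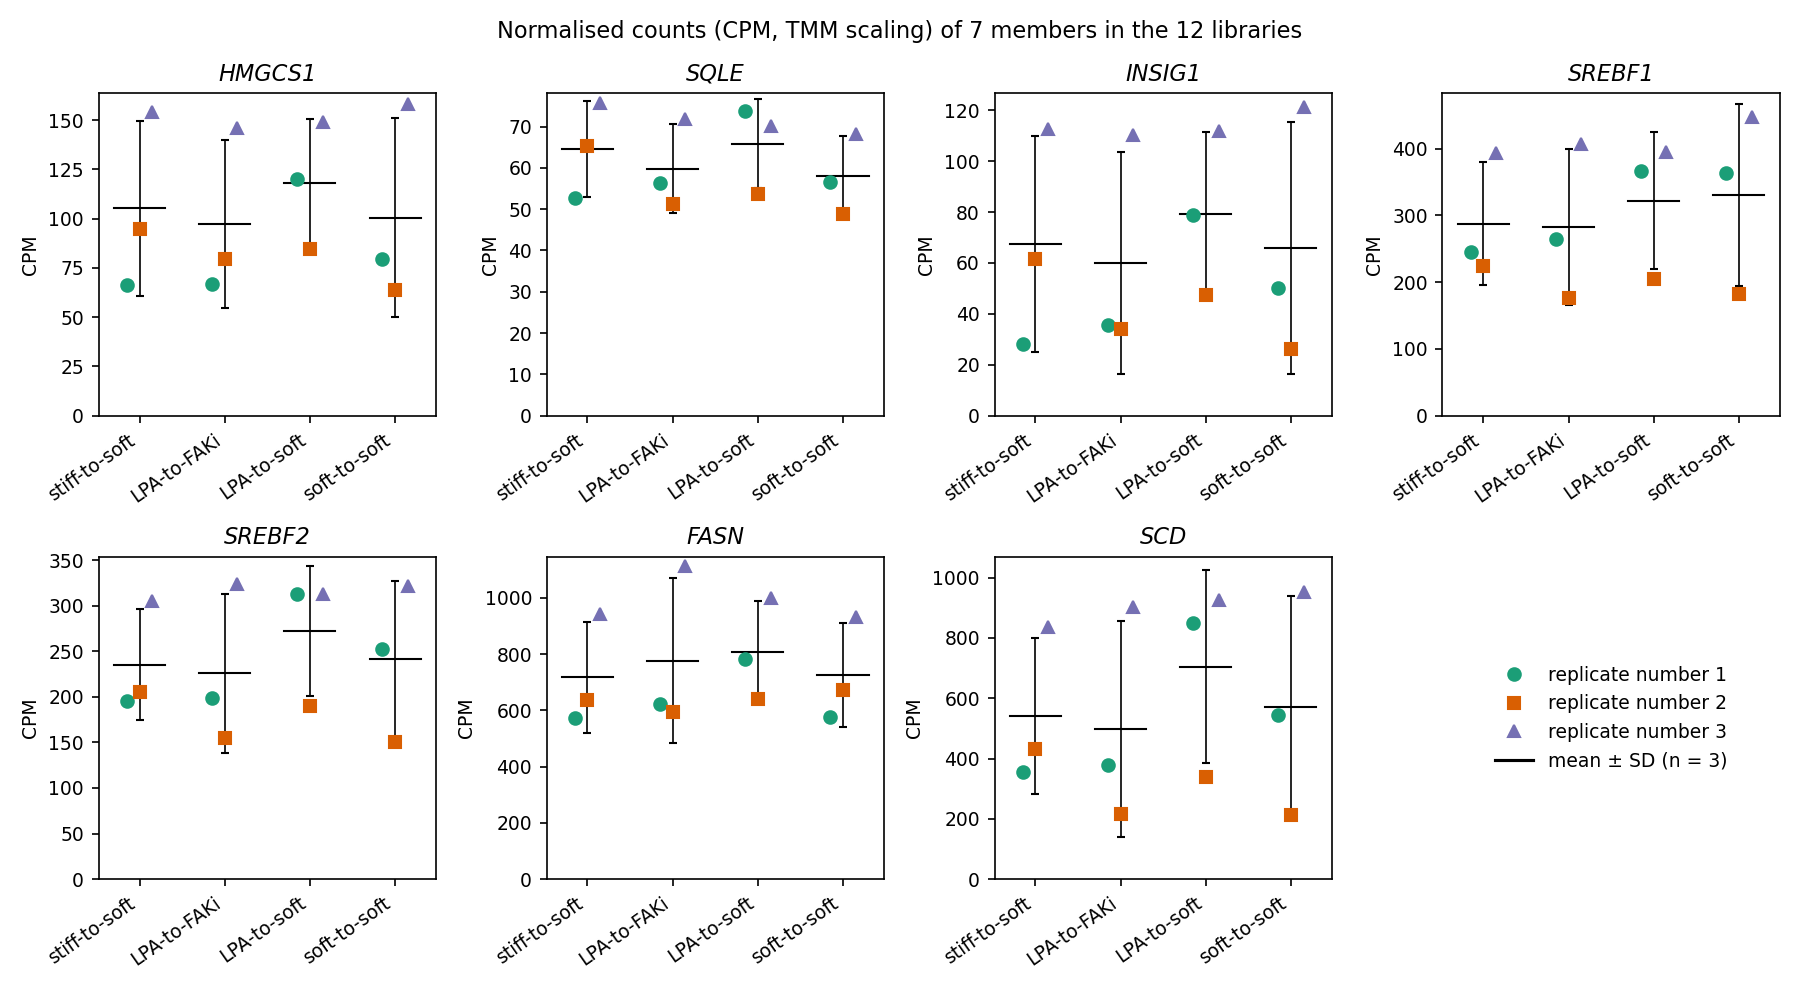
Levels of 7 members in CPM (vertical axis, linear, from 0) in the 4 conditions, with a point for each library coloured by replicate number, and bars for the mean ± SD of 3 libraries. In every condition the highest library is number 3, except for SQLE and SREBF2 in LPA-to-soft, where number 1 is above it.

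Among the sterol enzymes, HMGCS1, which joins acetyl-CoA to acetoacetyl-CoA on the way to mevalonate, had 66.5, 94.97 and 154 CPM in the stiff-to-soft libraries, 66.8, 79.3 and 146 CPM in the LPA-to-FAKi libraries, 120.3, 84.6 and 149 CPM in the LPA-to-soft libraries and 79.7, 63.7 and 158 CPM in the soft-to-soft libraries. The conditions overlapped, and in each of them number 3 was the highest library. Its log2 fold change was 0.06 ± 0.41 in stiff-to-soft relative to soft-to-soft and -0.28 ± 0.41 in LPA-to-FAKi against LPA-to-soft, neither beyond the spread (adjusted p = 1 and 0.919, edgeR quasi-likelihood test). SQLE, the squalene epoxidase, had 52.7, 65.4 and 75.7 CPM in the stiff-to-soft libraries, 56.4, 51.3 and 71.8 CPM in the LPA-to-FAKi libraries, 73.8, 53.7 and 70.1 CPM in the LPA-to-soft libraries and 56.7, 48.7 and 68.3 CPM in the soft-to-soft libraries. These values overlapped too, with a narrower spread, and LPA-to-soft replicate 1 was above replicate 3 of its condition. The mean of SQLE was 65.9 ± 10.7 CPM in LPA-to-soft and 57.9 ± 9.86 CPM in soft-to-soft cells (SD, n = 3 each). Across all 18 sterol enzymes the median log2 fold change was 0.04 in stiff-to-soft relative to soft-to-soft, 0.11 in LPA-to-soft against soft-to-soft and -0.12 in LPA-to-FAKi against LPA-to-soft. Over all genes tested the corresponding medians were -0.0063, -0.012 and -0.0048. With each library left out in turn, the medians of the sterol enzymes ranged from -0.12 to 0.33, from -0.039 to 0.32 and from -0.36 to 0.0087 in these comparisons, so the sign of each rested on single libraries. The sign turned without stiff-to-soft replicate 3 or soft-to-soft replicate 2 in the first, without LPA-to-soft replicate 3 or soft-to-soft replicate 2 in the second, and without LPA-to-soft replicate 3 in the third. The extremes of the arm were HSD17B7, a sterol ketoreductase, at 0.21 ± 0.18 in the first comparison, HMGCS1 at 0.23 ± 0.41 in the second, and MSMO1 at -0.37 ± 0.36 in the third. With each library left out these 3 values ranged from 0.088 to 0.35, from -0.014 to 0.72 and from -0.73 to -0.22, and that of HMGCS1 was below 0 without soft-to-soft replicate 2.

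Among the regulators, INSIG1 had 28.2, 61.4 and 113 CPM in the stiff-to-soft libraries, 35.5, 34.05 and 110.4 CPM in the LPA-to-FAKi libraries, 78.8, 47.4 and 112 CPM in the LPA-to-soft libraries and 50.3, 26.1 and 121 CPM in the soft-to-soft libraries. The conditions overlapped, and number 3, the highest library of each, lay between 110.4 and 121 CPM in all conditions. LPA-to-FAKi relative to LPA-to-soft cells gave a log2 fold change of -0.40 ± 0.65 (adjusted p = 0.925, edgeR quasi-likelihood test). With the block the fold change was -0.58 ± 0.31 (adjusted p = 0.302, edgeR quasi-likelihood test), so the SE shrank but no call was made. The size rests on single libraries: without the block it was -1.19 when LPA-to-FAKi replicate 3 was left out and -0.074 when LPA-to-soft replicate 3 was, and with the block it ranged from -0.81 to -0.24. SREBF1 had 245, 224 and 394 CPM in the stiff-to-soft libraries, 264, 176 and 407 CPM in the LPA-to-FAKi libraries, 367, 204 and 395 CPM in the LPA-to-soft libraries and 364, 181 and 448 CPM in the soft-to-soft libraries. SREBF2 had 195, 205 and 306 CPM in the stiff-to-soft libraries, 199, 155 and 324 CPM in the LPA-to-FAKi libraries, 313, 189.9 and 313 CPM in the LPA-to-soft libraries and 252, 151 and 322 CPM in the soft-to-soft libraries. For both genes replicate 2 was the lowest library of its condition in 3 or more of the 4 conditions, and the conditions overlapped. STARD4, a carrier of sterol between membranes, had the largest difference of the arm between LPA-to-FAKi and LPA-to-soft, -0.69 ± 0.55 on the log2 scale (adjusted p = 0.858, edgeR quasi-likelihood test). With each library left out it ranged from -1.28, without LPA-to-FAKi replicate 3, to -0.41, without LPA-to-FAKi replicate 2. STARD4 had 14.5, 13.9 and 24.2 CPM in the stiff-to-soft libraries, 9.98, 7.15 and 21.6 CPM in the LPA-to-FAKi libraries, 27.04, 10.4 and 24.96 CPM in the LPA-to-soft libraries and 22.97, 6.58 and 27.8 CPM in the soft-to-soft libraries. Its libraries overlapped between all conditions, with number 2 the lowest throughout. SCAP was nearly flat, from 87.5 to 101 CPM over all 12 libraries.

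Among the fatty acid genes, FASN had 574, 636 and 943 CPM in the stiff-to-soft libraries, 621, 595 and 1114 CPM in the LPA-to-FAKi libraries, 783, 642 and 999 CPM in the LPA-to-soft libraries and 575, 673 and 933 CPM in the soft-to-soft libraries. SCD had 355, 432 and 836 CPM in the stiff-to-soft libraries, 378, 217 and 901 CPM in the LPA-to-FAKi libraries, 851, 337 and 925 CPM in the LPA-to-soft libraries and 546, 213 and 953 CPM in the soft-to-soft libraries. Again the groups overlapped, number 3 was highest in each condition for both genes, and SCD spanned a wider range than FASN. SCD averaged 499 ± 358 CPM in LPA-to-FAKi and 704 ± 320.2 CPM in LPA-to-soft cells (SD, n = 3 each), with a log2 fold change of -0.50 ± 0.62 (adjusted p = 0.903, edgeR quasi-likelihood test). Left out in turn, single libraries moved that value of SCD from -1.24, without LPA-to-FAKi replicate 3, to -0.15, without LPA-to-FAKi replicate 2, and with the block from -0.83 to -0.33. FASN differed by -0.06 ± 0.29 in the same comparison. The median log2 fold change of the 12 fatty acid genes was 0.02 in stiff-to-soft relative to soft-to-soft, 0.12 in LPA-to-soft against soft-to-soft and -0.10 in LPA-to-FAKi against LPA-to-soft. With each library left out these medians ranged from -0.088 to 0.19, from -0.02 to 0.33 and from -0.31 to 0.013. The first turned sign without stiff-to-soft replicate 3 or soft-to-soft replicate 1 or 2, and the others without LPA-to-soft replicate 3.

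ACACA, which makes malonyl-CoA in the committed step of fatty acid synthesis, was the only member whose libraries did not overlap between a pair of conditions. It had 119, 134 and 146 CPM in the stiff-to-soft libraries, 115, 106 and 150.02 CPM in the LPA-to-FAKi libraries, 139, 132 and 156 CPM in the LPA-to-soft libraries and 101, 109.9 and 128 CPM in the soft-to-soft libraries. All LPA-to-soft libraries were above all soft-to-soft libraries, an ordering that 2.64% of all genes showed in that direction and 2.18% in the other. No member was free of overlap in another pair, where 2.16% of all genes lay higher and 2.19% lower between stiff-to-soft and soft-to-soft, 5.95% and 5.4% between LPA-to-FAKi and LPA-to-soft, and 3.04% and 3.12% between LPA-to-FAKi and soft-to-soft. These shares were 2.66% and 3.19% between stiff-to-soft and LPA-to-soft, and 3.64% and 3.82% between stiff-to-soft and LPA-to-FAKi. The log2 fold change of LPA-to-soft against soft-to-soft was 0.33 ± 0.14 without the block (adjusted p = 1) and 0.34 ± 0.075 with it (adjusted p = 0.353), both by the edgeR quasi-likelihood test. DESeq2 with the block gave 0.34 ± 0.084 and an adjusted p of 0.0198, which is past the threshold, while it called 0.466% of all genes. For any difference among the 4 conditions DESeq2 with the block gave ACACA an adjusted p of 0.00980, against 0.136 by edgeR, and it called 8.4% of all genes. The call on ACACA therefore depends on the tool. Without soft-to-soft replicates 1 and 2, which leaves 1 soft-to-soft library, neither tool with the block called ACACA in these comparisons. The log2 fold change of LPA-to-soft against soft-to-soft hardly moved, at 0.34 by DESeq2 and 0.33 by edgeR. The SE by DESeq2 rose from 0.084 to 0.14. That fit therefore cannot tell whether the call rests on these 2 libraries. FADS2 had 7.37, 15.1 and 16.04 CPM in the stiff-to-soft libraries, 9.19, 15.04 and 17.5 CPM in the LPA-to-FAKi libraries, 8.92, 12.6 and 13.2 CPM in the LPA-to-soft libraries and 7.59, 9.62 and 12.8 CPM in the soft-to-soft libraries. In LPA-to-FAKi against soft-to-soft, where the groups overlapped, its log2 fold change was 0.45 ± 0.13 with the block (adjusted p = 0.13, edgeR quasi-likelihood test), and DESeq2 with the block gave 0.45 ± 0.14 and an adjusted p of 0.0288, calling 4.56% of all genes. Without soft-to-soft replicates 1 and 2, FADS2 stood at 0.39 ± 0.20 (adjusted p = 0.611, 126 genes called) by DESeq2 with the block, and at 0.39 ± 0.18 (adjusted p = 0.597, 0 genes called) by edgeR with the block. ACACA and FADS2 were the only members DESeq2 called in any comparison of conditions. Without soft-to-soft replicate 2, edgeR with the block called ELOVL6, an elongase of saturated fatty acids, in LPA-to-FAKi against soft-to-soft, with a log2 fold change of 0.36 and an adjusted p of 0.0440. The same fit called 307 genes, 1.94% of all genes tested, against 87 with all libraries. With all libraries its fold change there was 0.26 ± 0.084 (adjusted p = 0.164, edgeR quasi-likelihood test with the block). ELOVL6 had 19.2, 26.9 and 24.1 CPM in the stiff-to-soft libraries, 20.9, 27.3 and 23.9 CPM in the LPA-to-FAKi libraries, 17.8, 24.9 and 21.8 CPM in the LPA-to-soft libraries and 15.8, 26.4 and 18.7 CPM in the soft-to-soft libraries. Number 2 was its highest library in every condition, unlike most members.

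The replicate number separated the libraries of these genes far more than the condition. What a number means is not stated in the labels. In a model with condition as a covariate, 31 of 36 members differed among the 3 numbers, against 52.3% of all genes tested (edgeR quasi-likelihood test, adjusted p under 0.05). They comprised 15 of 18 sterol enzymes, 4 of 6 regulators and 12 of 12 fatty acid genes. The members without a call were PMVK, MVD, NSDHL, INSIG2 and SCAP. Several calls rest on single libraries, left out in turn. ELOVL1 lost its call without 9 of the 12 libraries (edgeR adjusted p between 0.0530 and 0.141), all but soft-to-soft replicate 1, LPA-to-soft replicate 2 and LPA-to-FAKi replicate 1. ACACB lost it without LPA-to-FAKi replicate 3 (0.0641), so the count of 12 of 12 rests on these genes. HSD17B7 was lost without any 1 of stiff-to-soft replicates 1 and 3, LPA-to-FAKi replicates 1 to 3, LPA-to-soft replicate 1 or soft-to-soft replicate 3 (0.0503 to 0.0961). SC5D, the lathosterol oxidase, was lost without any 1 of stiff-to-soft replicate 3, LPA-to-FAKi replicates 2 and 3, LPA-to-soft replicate 2 or soft-to-soft replicates 2 and 3 (0.0923 to 0.119). SQLE was lost without the same libraries other than soft-to-soft replicate 2 (0.0525 to 0.0670). MVD gained a call without LPA-to-soft replicate 1 or stiff-to-soft replicate 1 or 2 (0.0262 to 0.0439). Without soft-to-soft replicates 1 and 2 together, 28 members were called, against 37.2% of all genes. Number 3 had the highest mean for 31 of 36 members, against 32.7% of all genes. For 18 of 36 members all 4 libraries of number 3 lay above the other 8, against 5.29% of all genes. Of the sum of squares of log2 CPM, replicate number held a median of 73.9% over the members and condition 8.53%, against 50.5% and 19.3% over all genes. Number held more than condition in 34 of 36 members, and in 11305 of all 15437 genes tested.

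**Figure D2:**
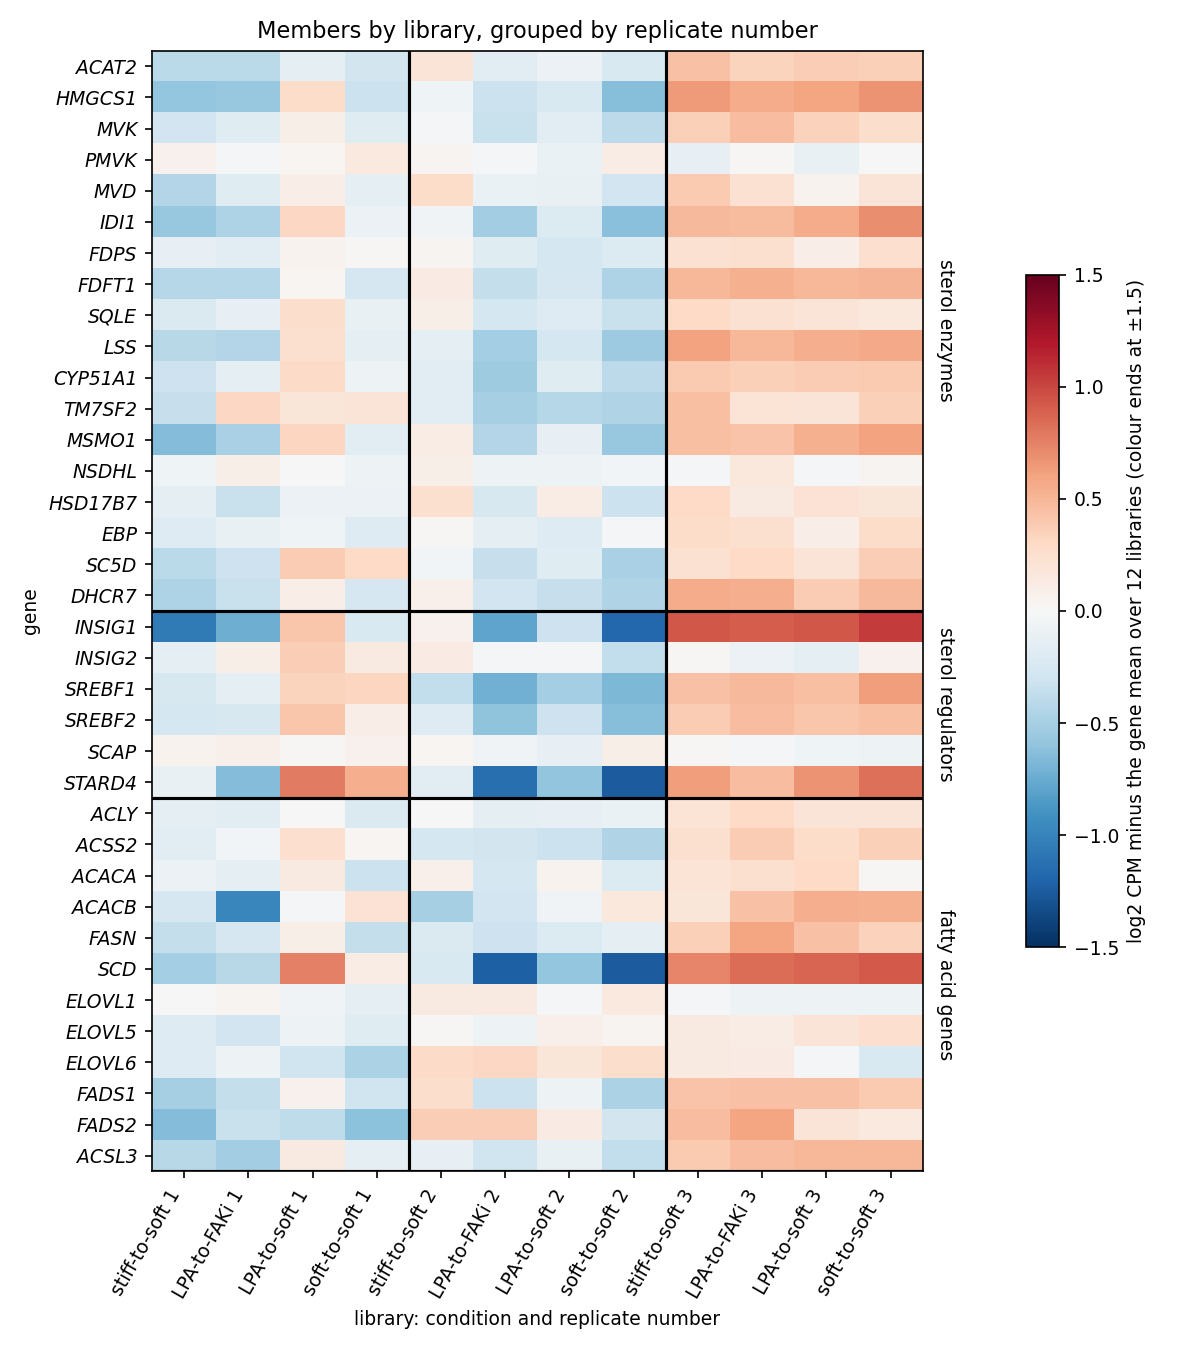
Log2 CPM of each member minus its mean over the 12 libraries (colour, ending at ±1.5), with libraries in columns grouped by replicate number and genes in rows by arm. The 4 columns of number 3 are red for nearly all members, whatever the condition, while PMVK, NSDHL and SCAP are pale throughout.

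In number 1 against number 3, 27 of 36 members were lower and 0 higher, against 20.6% and 19.2% of all genes. INSIG1 averaged 48.2 ± 22.4 CPM in number 1 and 114 ± 4.93 CPM in number 3 (SD, n = 4 each), a log2 fold change of -1.30 ± 0.28 (adjusted p = 0.00343, edgeR quasi-likelihood test). HMGCS1 fell to 83.3 ± 25.4 CPM in number 1, against 152 ± 5.39 CPM in number 3 (SD, n = 4 each), and LSS, the lanosterol synthase, had a log2 fold change of -0.74 ± 0.12. The largest difference among the fatty acid genes was that of FADS2, -0.84 ± 0.11, and FASN was lower by a log2 fold change of -0.65 ± 0.089. SQLE was not called here, at -0.26 ± 0.10 (adjusted p = 0.0625, edgeR quasi-likelihood test), nor was STARD4, at -0.47 ± 0.24 (adjusted p = 0.142). The calls on SREBF1 (-0.42 ± 0.12), SREBF2 (-0.42 ± 0.13) and SCD (-0.83 ± 0.24) were lost when stiff-to-soft replicate 1, LPA-to-FAKi replicate 1, LPA-to-FAKi replicate 3 or soft-to-soft replicate 3 was left out. The edgeR adjusted p was then between 0.0524 and 0.0558 for SREBF1, between 0.0740 and 0.0884 for SREBF2 and between 0.0540 and 0.0683 for SCD. The call on SQLE was gained without stiff-to-soft replicate 2 (edgeR adjusted p = 0.0355) or LPA-to-soft replicate 1 (edgeR adjusted p = 0.00884).

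The median log2 fold change in number 1 against number 3 was -0.40 over the sterol enzymes, -0.42 over the regulators and -0.51 over the fatty acid genes, against 0.0030 over all genes. In number 2 against number 3 these medians were -0.55, -0.96 and -0.44, against 0.0087 over all genes.

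In number 2 against number 3, 27 of 36 members were lower and 2 higher, against 11.6% and 12.2% of all genes. SCD averaged 299.6 ± 105 CPM in number 2 and 904 ± 49.6 CPM in number 3 (SD, n = 4 each), a log2 fold change of -1.63 ± 0.25 (adjusted p = 0.00158, edgeR quasi-likelihood test) and the largest of any member. IDI1, the isopentenyl diphosphate isomerase, differed by -0.89 ± 0.16 and LSS by -0.92 ± 0.12. INSIG1 was lower by a log2 fold change of -1.47 ± 0.28, STARD4 by -1.39 ± 0.24, SREBF1 by -1.06 ± 0.12 and SREBF2 by -0.86 ± 0.13. The members that were higher in number 2 were ELOVL6 and ELOVL1, elongases of fatty acid chains, with log2 fold changes of 0.26 ± 0.073 and 0.16 ± 0.052. The call on ELOVL1 was lost without any 1 of the 8 libraries of numbers 2 and 3 (edgeR adjusted p between 0.0513 and 0.182). That on ELOVL6 was lost without LPA-to-soft replicate 2, soft-to-soft replicate 2 or 3, or LPA-to-FAKi replicate 3 (edgeR adjusted p between 0.0570 and 0.104). The call on SQLE (-0.39 ± 0.10) was lost without any 1 of stiff-to-soft replicate 3, LPA-to-soft replicate 2, LPA-to-FAKi replicates 2 and 3, or soft-to-soft replicates 2 and 3, with an edgeR adjusted p between 0.0549 and 0.0775.

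Number 1 against number 2 gave 6 members higher and 4 lower, against 17% and 19% of all genes. Those higher were TM7SF2, a sterol reductase, SREBF1, SREBF2, STARD4, SCD and ACSS2, which makes acetyl-CoA from acetate. Those lower were ACAT2, the thiolase that makes acetoacetyl-CoA, the elongases ELOVL5 and ELOVL6, and FADS2. SREBF1 differed by a log2 fold change of 0.64 ± 0.12 and ELOVL6 by -0.52 ± 0.073. The number of members called fell to 6 without LPA-to-soft replicate 1, to 5 without LPA-to-soft replicate 2 and to 6 without LPA-to-FAKi replicate 2. Over all genes the same fits called 4043, 3929 and 4458, against 5557 with all libraries. The calls on SREBF2 (0.44 ± 0.13) and SCD (0.80 ± 0.24) were among those lost without each of these libraries, and also without soft-to-soft replicate 1 or 2, with an edgeR adjusted p between 0.0580 and 0.102. TM7SF2 was lost without any 1 of LPA-to-FAKi, LPA-to-soft or soft-to-soft replicates 1 and 2 (edgeR adjusted p between 0.0539 and 0.0743), STARD4 without LPA-to-soft replicate 1 or 2 (0.0593 and 0.0558), and ACAT2 without 9 of the 12 libraries in turn (between 0.0571 and 0.188), all but LPA-to-soft replicate 1 and soft-to-soft replicates 1 and 2. All 3 comparisons share libraries and the same model, so they are not independent.

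**Figure D3:**
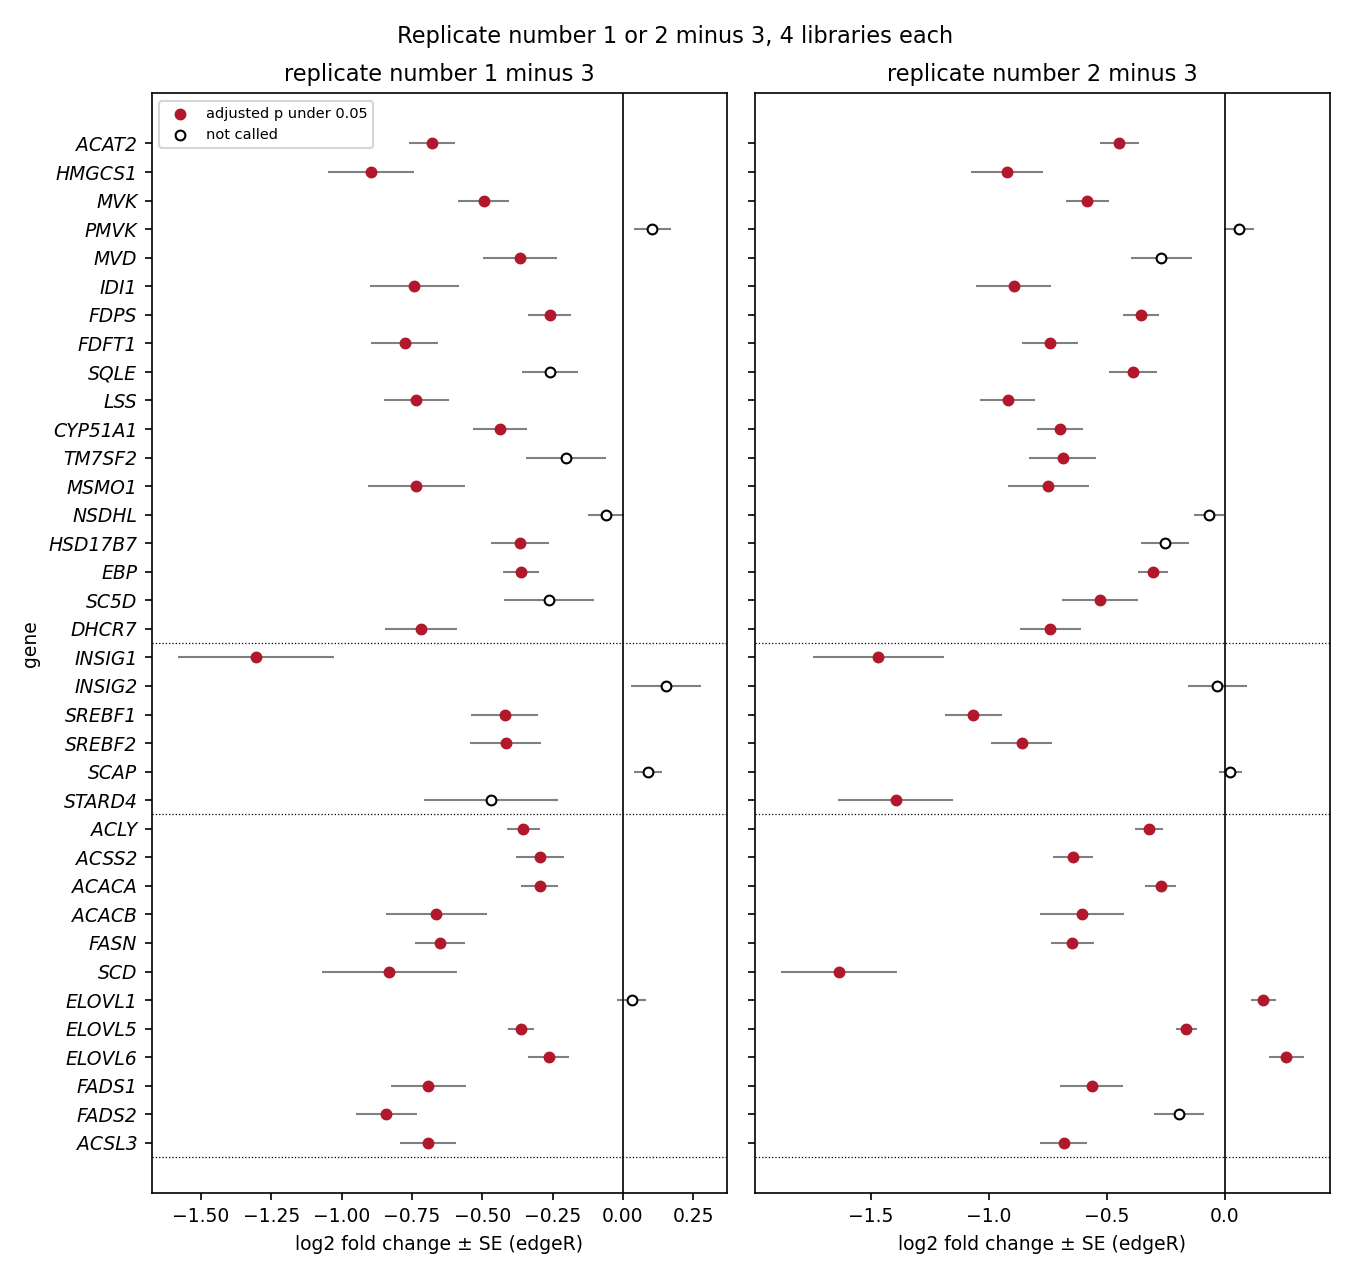
EdgeR log2 fold change ± SE of each member for replicate number 1 minus 3 (left) and 2 minus 3 (right), 4 libraries for each number, with filled points for an adjusted p under 0.05. Filled points lie left of 0 in both panels, with ELOVL1 and ELOVL6 to the right of 0 in the right panel.

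Of the upstream motifs shown above, the CCAAT box was found in 22 of 27 members that differed by replicate number and have a window, and in MVD and NSDHL, 2 of the 5 that were not called. PMVK and SCAP, whose windows are printed, have no CCAAT box, but neither has SREBF1, whose level did differ by number. The GC box was found in 26 of the 27 called members and in 4 of the 5 not called. TCACNCCA was found in 3 of the 27 and 0 of the 5, and the E-box in 3 of the 27 and 1 of the 5. The same split was not made over all genes, and a link between motif and call was not tested.

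Other features of the libraries were set beside replicate number. The squamous differentiation list, 15 genes tested of keratinocyte maturation such as KRT13 and SPRR2A, had a mean log2 CPM of 3.92 to 4.78 in number 1, 1.70 to 3.92 in number 2 and 1.77 to 2.58 in number 3, and 13 of 15 were called higher in number 1 than in number 3, against 19.2% of all genes. In number 2 against number 3, 7 of 15 were called higher, against 12.2% of all genes. The S phase list of 13 genes had a mean log2 CPM of 6.98 to 7.38 in number 1, 7.41 to 7.71 in number 2 and 7.27 to 7.44 in number 3. Mean log2 CPM of the 12 G2 and M phase genes was 6.89 to 7.55 in number 1, 7.31 to 7.44 in number 2 and 7.20 to 7.26 in number 3, so number 1 spans the others. The epithelial marker list had a mean log2 CPM of 9.49 to 9.79 in number 1, 8.79 to 9.48 in number 2 and 9.06 to 9.42 in number 3. Mitochondrial transcripts made up 4.31% to 5.05% of counts in the 4 libraries of number 2, below the other 8, at 5.47% to 8.22%. The part of these features in the differences between numbers was not tested.

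Other lists of lipid genes were counted in the same way, in number 1 against number 3, where 20.6% of all genes were called lower and 19.2% higher. Of 11 further genes of SREBP processing and sterol sensing, 6 were called lower and 0 higher in number 1 than in number 3. SEC23A and SEC24D, coat proteins of the vesicles that carry SREBPs to the Golgi, were among those lower, at -0.39 and -0.41 on the log2 scale. In number 2 this list was near number 3, unlike most members, with a mean log2 CPM of 5.75 to 5.84 against 5.76 to 5.79. SEC24D had 21.5 to 26.8 CPM in number 2 and 21.6 to 23.2 CPM in number 3. SEC23A had 50.6 to 55.4 CPM in number 2 and 56.6 to 62.9 CPM in number 3. Of 11 genes of cholesterol transport and esterification, 4 were called lower and 2 higher in number 1 than in number 3. The 8 genes of the liver X receptor (LXR) and cholesterol efflux list gave 3 lower and 2 higher, and 12 of fatty acid oxidation gave 4 lower and 3 higher. Of 17 further genes tested of fatty acid synthesis, activation and glycerolipid assembly, 6 were lower and 4 higher. Of 10 genes of the isoprenoid branch, 3 were lower and 0 higher. In comparisons of conditions by edgeR with the block, NR1H3, which encodes LXR alpha, was the only gene called among the lipid lists. It had 5.76, 8.91 and 9.54 CPM in LPA-to-FAKi libraries, against 4.08, 5.79 and 5.28 CPM in soft-to-soft libraries. In each replicate number the LPA-to-FAKi library was higher, though the groups overlapped narrowly, and the log2 fold change was 0.66 ± 0.12 (adjusted p = 0.0401, edgeR quasi-likelihood test with the block). This call was lost without any 1 of 9 libraries (edgeR adjusted p between 0.0530 and 0.192), all but stiff-to-soft replicate 1, LPA-to-soft replicate 1 and soft-to-soft replicate 2. DESeq2 with the block gave 0.66 ± 0.13 and an adjusted p of 9.4e-05, calling 4.56% of all genes. DESeq2 without the block gave 0.68 ± 0.26 and an adjusted p of 0.88. Without soft-to-soft replicates 1 and 2, which leaves 1 soft-to-soft library, the log2 fold change was 0.81 by either tool with the block.

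The numbers were taken to pair the libraries, from these same counts and not from the labels. The conditions were therefore also set against each other within each number. Each such difference sets 1 library against 1, so a single deviating library can move many genes together. Counts of genes on a side are therefore not counts of replicates of a condition. Between stiff-to-soft and soft-to-soft, the median difference in log2 CPM over the 18 sterol enzymes was -0.19 in number 1, 0.42 in number 2 and -0.0039 in number 3. Over all 15437 genes tested, stiff-to-soft was higher for 7680, 7509 and 7608 in numbers 1, 2 and 3. It was higher for 1 of 18 enzymes in number 1, 17 of 18 in number 2 and 8 of 18 in number 3. The difference between these conditions thus turned over between numbers 1 and 2 and was near 0 in number 3. INSIG1 differed by -0.84, 1.24 and -0.11 in numbers 1, 2 and 3, and SCD by -0.62, 1.02 and -0.19. In the same comparison the S phase list went the other way, with 13 of 13 genes higher in number 1, 0 of 13 in number 2 and 1 of 13 in number 3. The part of cell cycle state in the sterol values was not tested. Soft-to-soft replicates 1 and 2 are the libraries with another kind of low count.

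Stiff-to-soft against LPA-to-soft does not use those libraries, but it shares the stiff-to-soft libraries with the comparison above. The difference turned over there too, and this repeat is not independent. Between LPA-to-soft and soft-to-soft, the median over the sterol enzymes was 0.25 in number 1, 0.19 in number 2 and -0.08 in number 3. Between stiff-to-soft and LPA-to-soft it was -0.50 in number 1, 0.19 in number 2 and 0.05 in number 3. INSIG1 differed by -1.48, 0.37 and 0.01 and HMGCS1 by -0.86, 0.17 and 0.05. Of all 36 members, 3 were higher and 4 lower in all 3 numbers, against 18.1% and 16.8% of all genes. Those lower were ACACB, FASN, ELOVL5 and ACSL3, an acyl-CoA synthetase. They belong to the fatty acid arm, in which 2 other genes were higher in all 3 numbers. Both counts of members lay below the share of all genes.

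**Figure D4:**
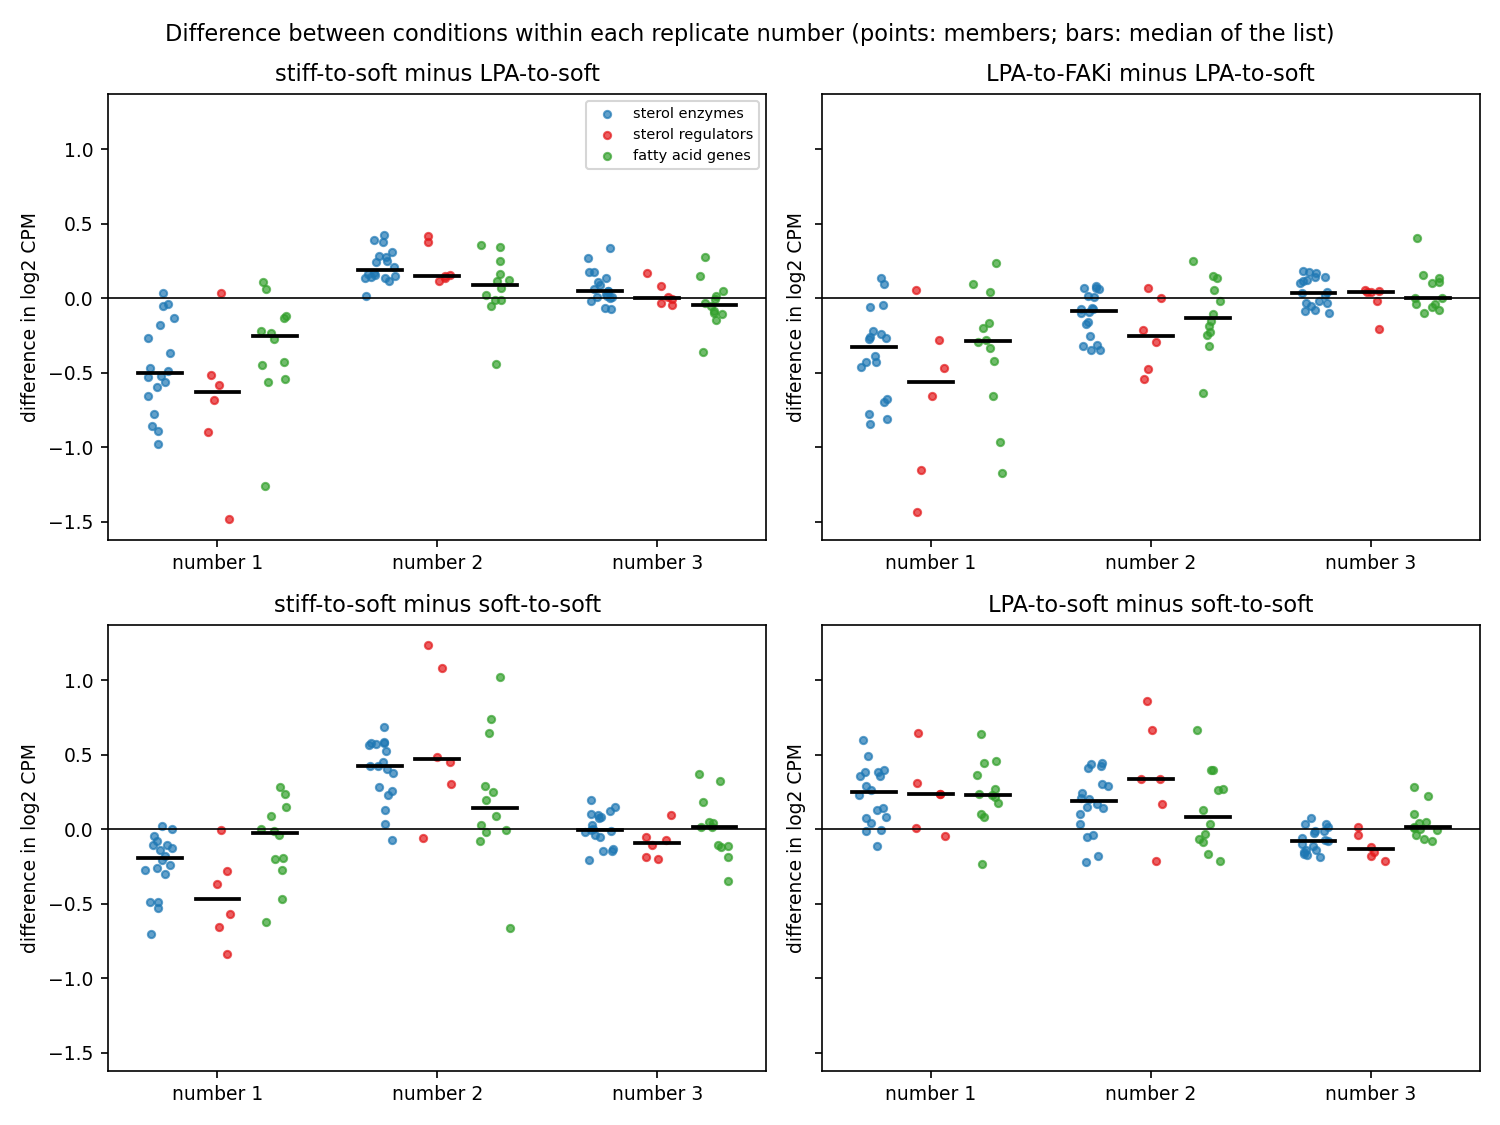
Difference in log2 CPM between conditions within each replicate number, with a point for each member coloured by arm and a bar for the median of the arm, for 4 pairs of conditions. The sterol enzymes lie mostly below 0 in number 1 and above 0 in number 2 for stiff-to-soft minus LPA-to-soft, and the medians of all arms lie close to 0 in number 3.

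The comparison of LPA-to-FAKi with LPA-to-soft asks what FAK inhibition during replating did to LPA-conditioned cells. Lower in all 3 numbers were 14 of 36 members, against 22.2% of all genes, and higher in all 3 were 4, against 22.9%. The 14 comprised 7 sterol enzymes (ACAT2, HMGCS1, IDI1, LSS, CYP51A1, MSMO1 and HSD17B7), the regulators INSIG1 and STARD4, and the fatty acid genes ACACA, ACACB, SCD, ELOVL5 and ACSL3. For INSIG1, SCD and MSMO1 the difference was widest in number 1 and smallest in number 3. INSIG1 differed by -1.15, -0.48 and -0.02 in numbers 1, 2 and 3, SCD by -1.17, -0.64 and -0.04 and MSMO1 by -0.81, -0.32 and -0.10. The 4 that were higher were NSDHL, SCAP, ELOVL6 and FADS2, the last by 0.04, 0.25 and 0.40. The median over the sterol enzymes was -0.33 in number 1, -0.08 in number 2 and 0.04 in number 3, so the arm as a whole did not go 1 way. In the same comparison 11 of 13 S phase genes were higher in all 3 numbers, and their part in the lipid gene values was not tested. None of the 36 members was called, at a lowest edgeR adjusted p of 0.133 with the block, for ACACA.

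LPA-to-soft was higher than soft-to-soft in all 3 numbers for 7 of 36 members, against 15.8% of all genes, and lower for 1, against 18.3%. The 7 were ACAT2, MVK, which phosphorylates mevalonate, SQLE, ACACA, the desaturases FADS1 and FADS2, and ACSL3, and the 1 was PMVK, which acts directly after MVK. ACACA differed by 0.46, 0.27 and 0.28 and SQLE by 0.38, 0.14 and 0.04 in numbers 1, 2 and 3. Learned cells were higher than cells that had not learned in all 3 numbers for 8 members (ACAT2, SQLE, LSS, CYP51A1, HSD17B7, STARD4, ACACA and FADS1), against 19.1% of all genes, and lower for PMVK alone, against 20.8%. Stiff-to-soft was higher than soft-to-soft in all 3 numbers for ACLY, ACACA and ELOVL6, and lower for PMVK, ACACB and ELOVL5, against 14.6% and 15.6% of all genes. LPA-to-FAKi was higher than soft-to-soft for ELOVL6 and FADS2 and lower for 4 members, against 17.4% and 17.7%. In stiff-to-soft against LPA-to-FAKi, LSS, HSD17B7, STARD4 and ELOVL5 were higher and 0 members lower in all 3 numbers, against 18.7% and 19.3%. These pairs share libraries, and most of these counts lay near or below the background.

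The order of the conditions differed from number to number, with 1 library for each condition in each number. In number 1, stiff-to-soft was the lowest condition for 13 of 18 sterol enzymes and LPA-to-soft the highest for 14 of 18, against 21.2% and 26.2% of all genes. In number 2, stiff-to-soft was the highest for 17 of 18 and soft-to-soft the lowest for 12 of 18, against 26.7% and 27.6% of all genes. In number 3, stiff-to-soft and soft-to-soft were each the highest for 7 of 18 enzymes, against 22.9% and 25.6% of all genes. The range over the 4 conditions was also smallest in number 3, where levels were highest, for 30 of 36 members, against 49.3% of all genes. The median range of log2 CPM over the sterol enzymes was 0.51 in number 1, 0.42 in number 2 and 0.17 in number 3, and over all genes it was 0.41, 0.34 and 0.27. INSIG1 ranged over 1.48 in number 1, 1.24 in number 2 and 0.14 in number 3, and SCD over 1.26, 1.02 and 0.19. CYP51A1, the lanosterol demethylase, ranged over 0.60 in number 1 and 0.029 in number 3.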

How the data were processed

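The 12 human RNA libraries, 3 for each of 4 conditions, were grouped by the labels. Per the labels' protocols, RNA was column-purified and libraries were made with a stranded kit. The deposited count table holds whole read counts per gene symbol. Cutadapt, FastQC, STAR, HTSeq, DESeq2 and the build hg19 are named by the submitters' processing notes, and the sources used here do not give their settings. A table of log2 values deposited by the authors was not used for any test.

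Counts were tested with edgeR 4.0.16 (quasi-likelihood F test, TMM scaling, Benjamini-Hochberg adjustment) in R 4.3.3, after a filter on low counts that used the condition, and without replicate number. CPM are from TMM-scaled library sizes, and log2 CPM use a prior count of 2. Differences by replicate number had condition as a covariate. Alternatives were a replicate block, DESeq2 1.42.0, other size factors, no filter, and each library left out. The tests of conditions were run on simulated data with planted changes. A minimum number of calls on these was required only of the fits with the replicate block. The check therefore does not show which changes the fit without the block can detect.

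Whether numbers pair libraries was checked from deviations from the condition means: over 18 pairs of the same number the correlation was 0.312 to 0.659, and over 36 pairs of different numbers -0.517 to 0.0372. All 12 libraries correlated best with their own number, so the numbers were taken to pair them.

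The members and the other gene lists were chosen by symbol, with earlier results of these data known. The genes to be given in every library by rule were HMGCS1, SQLE, INSIG1, SREBF1, SREBF2, FASN and SCD and any member called between conditions. Extremes of an arm are given by their fold change. ACACA, FADS2, STARD4, ELOVL6, SEC23A, SEC24D and the other members named were chosen after their values were seen. Promoter windows come from RefSeq on GRCh38.p14, while the counts are on hg19, and exon lengths are from GENCODE on GRCh38.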

Additional observations from a re-analysis of the deposited data

How the results depend on the processing

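Of 272 counts of members called between conditions under other settings, 268 were 0 and 4 were 1. Many of these could only be 0. With 1 library left out, edgeR without the block called 0 of all genes in every comparison of conditions. With the block it also called 0 of all genes in LPA-to-soft against soft-to-soft. The tally therefore says little about the members alone. With the replicate block, edgeR called 0 of 36 members in every comparison of conditions. DESeq2 with the replicate block called 1 in LPA-to-soft against soft-to-soft, 1 in LPA-to-FAKi against soft-to-soft and 1 for any difference, and leaving out libraries with the block gave 0 to 1 in LPA-to-FAKi against soft-to-soft. Size factors other than TMM and no filter, both with the block, called 0 members, as did DESeq2 with the block without soft-to-soft replicates 1 and 2; these 3 were chosen after seeing the data. Members called by replicate number ranged from 26 to 31 with each library left out, from 20 to 28 in number 1 against 3, and from 20 to 30 in number 2 against 3. The same fits called 6595 to 7931, 4792 to 6441 and 1901 to 4041 of all genes (8074, 6146 and 3660 with all libraries). In number 1 against 2 the count was 10 with all libraries, 5 to 13 with each left out (3929 to 5469 of all genes), and 6 without soft-to-soft replicates 1 and 2. Some differences not called in that comparison changed sign. Without those replicates HMGCS1 was at -0.0643 and INSIG1 at -0.0701. FASN was at 0.0074 with other size factors, 0.0047 with no filter, 0.0042 with no condition term and 0.0716 without those replicates. With each library left out, HMGCS1 ranged from -0.163 to 0.173, INSIG1 from -0.0997 to 0.490 and FASN from -0.100 to 0.0689. In LPA-to-FAKi against LPA-to-soft, FASN ranged from -0.409 to 0.125 (with the block -0.195 to 0.0342), SREBF1 from -0.546 to 0.0499, and SQLE with the block from -0.229 to 0.0025. The cause was not tested. Over all genes, DESeq2 with the block called 1231 genes in that comparison, against 0 by edgeR. With 3 libraries a condition, differences below the spread were not detectable.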
